A study of Homo sapiens with 10 samples.

Results

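A set of 10 genes of the autophagy machinery was followed in ST486 cells, a human Burkitt's lymphoma line, after knockdown of the kinase STK38. They were the ATG8 family genes MAP1LC3B, GABARAP and GABARAPL2, the cargo receptor SQSTM1, the initiation genes BECN1 and ULK1, the conjugation genes ATG5 and ATG12, and the transcription factor genes TFEB and TFE3. The members were all probe sets whose platform annotation named only one of these genes, which gave 13 of the 12558 probe sets on the array and all 10 genes. Both groups were ST486 cells taken 60 h after lentiviral transduction, 5 arrays with an STK38 shRNA (Sigma TRCN0000010215) and 5 arrays with a non-target control shRNA (Sigma SHC002), so both groups carried a lentiviral vector and neither was untreated. A single hairpin per group was used, and changes caused by that hairpin through other transcripts cannot be told apart from those of STK38 knockdown. Nothing in the labels says that replicate arrays stem from different cultures; p-values here reflect array-to-array spread, possibly technical.

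Autophagy delivers cytoplasmic material to lysosomes inside double-membrane vesicles. The ULK1 kinase complex starts the process, a lipid kinase complex built on BECN1 marks the membrane, and the ATG12–ATG5 conjugate attaches ATG8 proteins such as LC3B and GABARAP to it, where receptors such as p62, the product of SQSTM1, bring in cargo. TFEB and TFE3 are related transcription factors that mTORC1 keeps in the cytoplasm when nutrients are plentiful, and that switch on lysosomal and autophagy genes from the nucleus by binding E-box sequences of the type CACGTG. MYC and MAX bind the same core sequence.

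The arrays were Affymetrix HG-U95Av2, with deposited log2 values from 0.35 to 12.65, and their number limits the precision. STK38 itself was lower with its shRNA, with a log2 difference of -2.19 (SE 0.14, limma adjusted p = 5.65e-08), and MYC differed by -1.38 (SE 0.15, adjusted p = 9.56e-06). Of the 5 B cell markers on the array, 4 were above background on all 10 arrays, where background is a level set on each array from control probe sets (2.36 to 2.66). Of other cell types, 3 monocyte, 2 T cell, 3 epithelial and 4 fibroblast and endothelial markers were tested, and 0 were called higher. The 1 erythroid marker on the array was too dim to be tested. STK38 shRNA replicate 4 stood apart, with a mean correlation of 0.982 with the other arrays of its group, which correlated with each other at 0.995 to 0.997. On that array the mean level of the monocyte, epithelial, and fibroblast and endothelial markers was the highest of its group, at 2.39, 2.66 and 2.14 on the log2 scale. Its background was also the highest of its group, at 2.65, so the monocyte and the fibroblast and endothelial means lay under it. The 75th percentile of its values was 3.54, against 3.91 to 4.02 on the other arrays. Of the T cell markers, the 2 tested were called lower, and the mean level of that list was 2.18 to 2.32 in the controls and 1.80 to 1.98 with the STK38 shRNA. Of the 4 B cell markers tested, 1 was called higher. The part of these markers in the results was not tested. The deposited values are relative to each array as a whole, so a change in the total RNA of a cell cannot be seen in them, and fewer cells of a type and less RNA per cell cannot be told apart.

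Promoter sequences are shown for the ATG8 family members and SQSTM1, the members with the largest rises between the groups. Each is the 250 bases before a start site that RefSeq lists on GRCh38.p14, printed 5′ to 3′. Capitals mark the GC box GGGCGG and the flanked E-box TCACNTGA, each searched on both strands. MAP1LC3B is read from chr16:87392086-87392335 on the plus strand, GABARAP from chr17:7242450-7242699 on the minus strand, GABARAPL2 from chr16:75566129-75566378 on the plus strand, and SQSTM1, at the most downstream of its 3 listed starts, from chr5:179820655-179820904 on the plus strand.
MAP1LC3B: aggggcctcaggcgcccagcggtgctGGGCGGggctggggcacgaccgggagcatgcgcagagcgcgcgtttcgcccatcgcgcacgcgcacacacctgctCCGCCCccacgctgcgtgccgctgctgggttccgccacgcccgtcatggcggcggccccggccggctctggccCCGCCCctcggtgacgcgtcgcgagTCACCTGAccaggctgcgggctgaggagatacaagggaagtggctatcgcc
GABARAP: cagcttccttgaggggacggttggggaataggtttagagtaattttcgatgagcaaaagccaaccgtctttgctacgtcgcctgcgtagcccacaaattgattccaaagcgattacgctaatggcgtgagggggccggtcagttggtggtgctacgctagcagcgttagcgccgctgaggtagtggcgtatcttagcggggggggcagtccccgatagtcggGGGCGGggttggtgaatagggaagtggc
GABARAPL2: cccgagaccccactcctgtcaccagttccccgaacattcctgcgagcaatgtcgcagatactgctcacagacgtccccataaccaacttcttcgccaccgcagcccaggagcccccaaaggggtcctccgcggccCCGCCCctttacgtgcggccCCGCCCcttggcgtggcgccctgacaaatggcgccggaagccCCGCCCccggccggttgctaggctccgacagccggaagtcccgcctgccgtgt
SQSTM1: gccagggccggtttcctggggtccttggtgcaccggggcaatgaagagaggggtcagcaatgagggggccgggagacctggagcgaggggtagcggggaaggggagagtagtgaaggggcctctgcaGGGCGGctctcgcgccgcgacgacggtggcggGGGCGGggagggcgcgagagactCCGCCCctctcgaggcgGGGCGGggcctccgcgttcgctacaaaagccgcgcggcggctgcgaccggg

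All 4 windows held a GC box, as did 8 of the 10 members at any listed start and 73.9% of the 4494 tested genes with a window. BECN1, which also rose, and ATG12, which was not called, held no GC box. MAP1LC3B was the 1 member with a match to TCACNTGA, which reads TCACCTGA and begins 51 bases before the start site (position -51); 4.83% of tested genes held such a match. None of the 10 members held the E-box CACGTG in these 250 bases, where 11.6% of tested genes and 12 of 19 lysosomal genes of the CLEAR network (named for the E-box element that TFEB binds in their promoters) held it. The lysosomal list was compiled from genes known for that element, so its count is a property of the list. TCACNTGA and GGGCGG were chosen after the windows were seen, and a match describes letters only.

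Of the 10 genes, 8 were called higher with the STK38 shRNA and 0 lower, by the brightest probe set of each in limma with Benjamini-Hochberg adjustment over all 7535 probe sets tested and a threshold of 0.05. One of the 8, ULK1, had a control mean under the filter on dim probe sets and was tested only through its STK38 shRNA arrays, so its call carries no weight in this count. Over all 5403 genes tested, 15.2% were called higher and 15.8% lower. The median log2 difference was 0.59 over the members and 0.019 over all genes. It was 0.35 over the members with the dim genes ATG5, ULK1, TFEB and TFE3, which allow no fold, set to no difference. Among the 3137 genes above background on all 10 arrays, 20.7% were called higher, and 5 of the 6 members in that state were. The members fall into a bright set that rose by 0.70 to 1.07 on the log2 scale, made up of MAP1LC3B, GABARAP, GABARAPL2, SQSTM1 and BECN1; a dim set near background, made up of ATG5, ULK1, TFE3 and TFEB; and ATG12, which was measured and not called. Without STK38 shRNA replicate 4 the same 8 members were called, where 21.8% of genes were called higher.

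**Figure D1:**
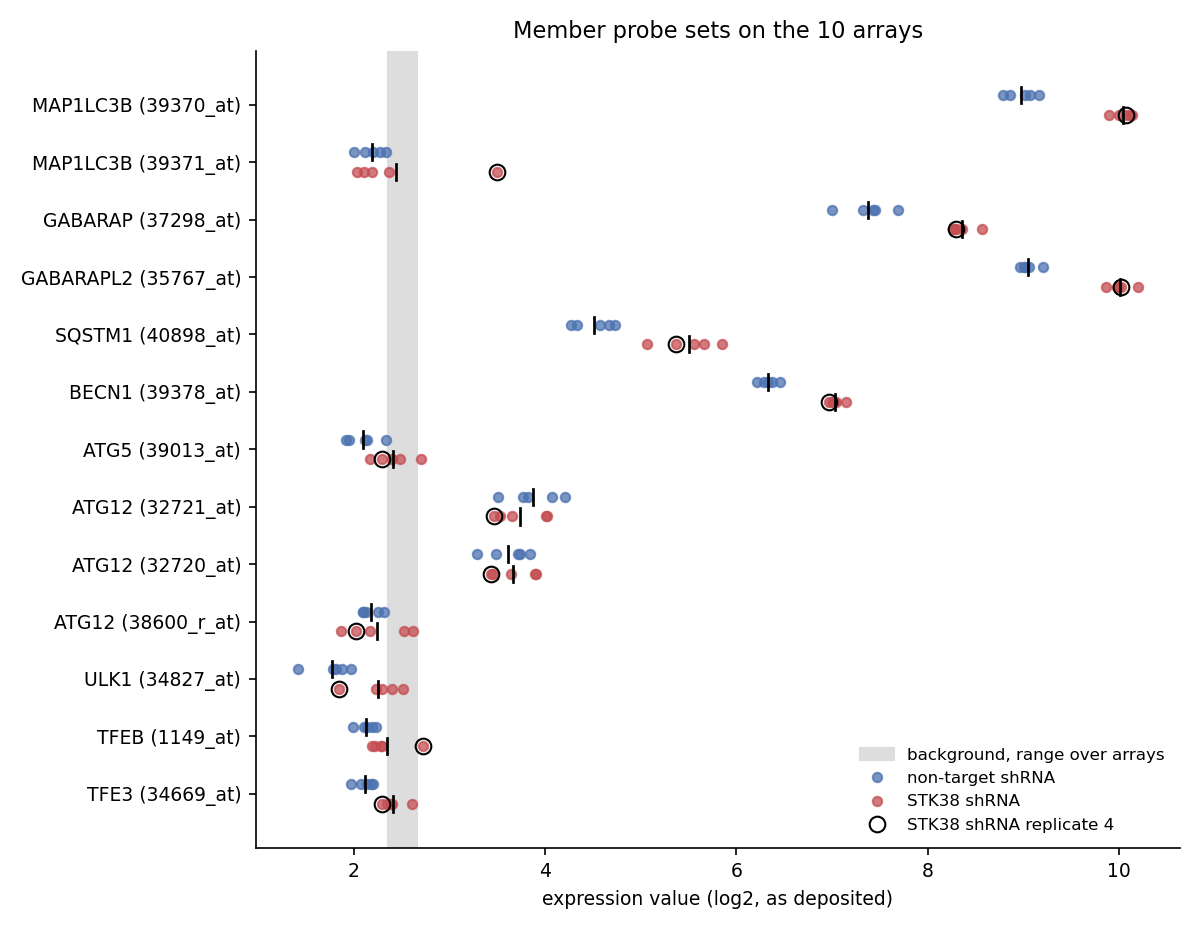
Deposited log2 value (horizontal axis) of each member probe set on each of the 10 arrays, with non-target shRNA in blue, STK38 shRNA in red, black bars for the group means, a ring around STK38 shRNA replicate 4 and a grey band for the range of the array backgrounds, 2.36 to 2.66. The brightest probe sets of MAP1LC3B, GABARAP, GABARAPL2, SQSTM1 and BECN1 lie right of the band with no overlap between groups, while ATG5, ULK1, TFEB and TFE3 lie at or left of the band on most arrays.

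The 3 ATG8 family members all rose. MAP1LC3B encodes LC3B, the protein most used as a marker of autophagosomes. Its bright probe set read 9.9999, 10.12, 9.90, 10.07 and 10.14 on the STK38 shRNA arrays (log2, replicates 1 to 5 in order) and 8.79, 9.02, 9.16, 9.07 and 8.86 on the control arrays. Every STK38 shRNA array was above every control array, and the gap between the groups was wider than the range within either. The mean went from 8.98 ± 0.15 to 10.05 ± 0.097 (SD, n = 5 each), which is 2.09-fold (SE 0.075 on the log2 scale, limma adjusted p = 1.01e-07). Of all probe sets tested, 1.02% had a larger rise.

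A second MAP1LC3B probe set was dim. It read 2.11, 2.04, 2.37, 3.50 and 2.20 with the STK38 shRNA and 2.20, 2.11, 2.27, 2.01 and 2.34 in the controls, so the groups overlapped and replicate 4 was the single array above background. Its log2 difference was 0.25 (95% confidence interval -0.21 to 0.72, adjusted p = 0.449), and -0.0097 without replicate 4 (adjusted p = 0.948). The rise of MAP1LC3B thus rests on 1 probe set.

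GABARAP, a relative of LC3B that acts in later steps of autophagosome formation, read 8.57, 8.26, 8.36, 8.30 and 8.29 with the STK38 shRNA. In the controls it read 7.45, 7.003, 7.32, 7.43 and 7.69. The STK38 shRNA arrays lay together around 8.36, above the highest control. The difference was 0.98 (SE 0.11, limma adjusted p = 1.13e-05), or 1.97-fold, and 1.5% of probe sets rose more. GABARAPL2, also called GATE-16, read 10.20, 9.86, 9.98, 10.02 and 9.99 with the STK38 shRNA and 9.06, 8.97, 9.02, 9.004 and 9.21 in the controls, again with no overlap. Its group means were 10.01 ± 0.12 and 9.05 ± 0.094 (SD, n = 5 each), a 1.95-fold difference (log2 0.96, SE 0.067, adjusted p = 1.01e-07).

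The 3 members of the family rose by amounts that differed by less than their spread. Within arrays MAP1LC3B rose by 0.087 more than GABARAP (SE 0.18, exact permutation p = 0.635, two-sided) and by 0.10 more than GABARAPL2 (SE 0.13, exact permutation p = 0.429). GABARAP exceeded GABARAPL2 by 0.017 (SE 0.082, exact permutation p = 0.921). These p-values do not show that the changes were equal, and 5 against 5 arrays allow none under 0.00794. GABARAPL1, a further family member not among the 10, exceeded background on 0 control arrays and on 4 with the STK38 shRNA, and was at least 1.26-fold higher (adjusted p = 0.000533); this bound is the STK38 shRNA mean against, on each control array, the higher of background and signal. Its control mean of 1.82 lay under the filter of 1.93 on the mean over all arrays, so it was tested through its STK38 shRNA arrays.

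SQSTM1 encodes p62, which binds ubiquitinated cargo and LC3 and is itself degraded by autophagy. Its values were 5.07, 5.56, 5.85, 5.37 and 5.66 with the STK38 shRNA and 4.67, 4.74, 4.58, 4.27 and 4.33 in the controls. The groups did not overlap, and replicate 1 was the lowest of the STK38 shRNA arrays. The mean rose from 4.52 ± 0.21 to 5.50 ± 0.30 (SD, n = 5 each), which is 1.98-fold (log2 0.99, SE 0.15, limma adjusted p = 0.000170). Its difference had the largest SE of the bright members, and MAP1LC3B exceeded it by 0.079 within arrays (SE 0.19, exact permutation p = 0.675). Of the 9 genes tested in the list of cargo receptors, SQSTM1 and NBR1 rose, PHB2 fell and 6 were not called, with a median of 0.11. Without SQSTM1, 1 of 8 rose and 1 fell, near the shares over all genes tested, 15.2% higher and 15.8% lower. Without replicate 4, 3 of the 9 rose and 1 fell (median 0.13), where 21.8% of all genes were called higher. Leaving out SQSTM1 as well, 2 of 8 rose and 1 fell. NBR1, a receptor with the same domain plan as p62, rose by 0.39 (SE 0.11, adjusted p = 0.0144) and was above background on 3 control arrays. PHB2, an inner mitochondrial membrane protein that also serves as a mitophagy receptor, fell by 0.37 (SE 0.070, adjusted p = 0.00107). OPTN had 0.31 (adjusted p = 0.0578; 0.35 with adjusted p = 0.0187 without replicate 4) and TAX1BP1 0.14 (adjusted p = 0.163).

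BECN1 encodes Beclin 1, the scaffold of the class III PI3-kinase complex and a partner of BCL2. It read 7.003, 7.03, 7.04, 6.97 and 7.14 with the STK38 shRNA and 6.29, 6.38, 6.46, 6.33 and 6.22 in the controls. Both groups were tight and did not overlap. The mean rose from 6.34 ± 0.092 to 7.04 ± 0.066 (SD, n = 5 each), or 1.63-fold (log2 0.70, SE 0.084, limma adjusted p = 1.80e-05). Of the 7 genes tested in its complex, BECN1 included, 2 rose and 1 fell, with a median of 0.30. Without BECN1, 1 of 6 rose and 1 fell, near the shares over all genes tested, 15.2% higher and 15.8% lower. Without replicate 4, 4 of the 7 rose and 1 fell (median 0.33), where 21.8% of all genes were called higher. Leaving out BECN1 as well, 3 of 6 rose and 1 fell. RUBCN, an inhibitor of the complex, rose by 0.44 (SE 0.12, adjusted p = 0.00903) at the brighter of its probe sets and had 0.070 at the other. SH3GLB1, or Bif-1, which binds the complex through UVRAG, fell by 0.67 (SE 0.18, adjusted p = 0.0102). The catalytic subunit gene PIK3C3 had 0.30 (adjusted p = 0.0951) and ATG14 0.39 (adjusted p = 0.0930); both passed the threshold without replicate 4, at 0.33 (adjusted p = 0.0403) and 0.54 (adjusted p = 0.00210).

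**Figure D2:**
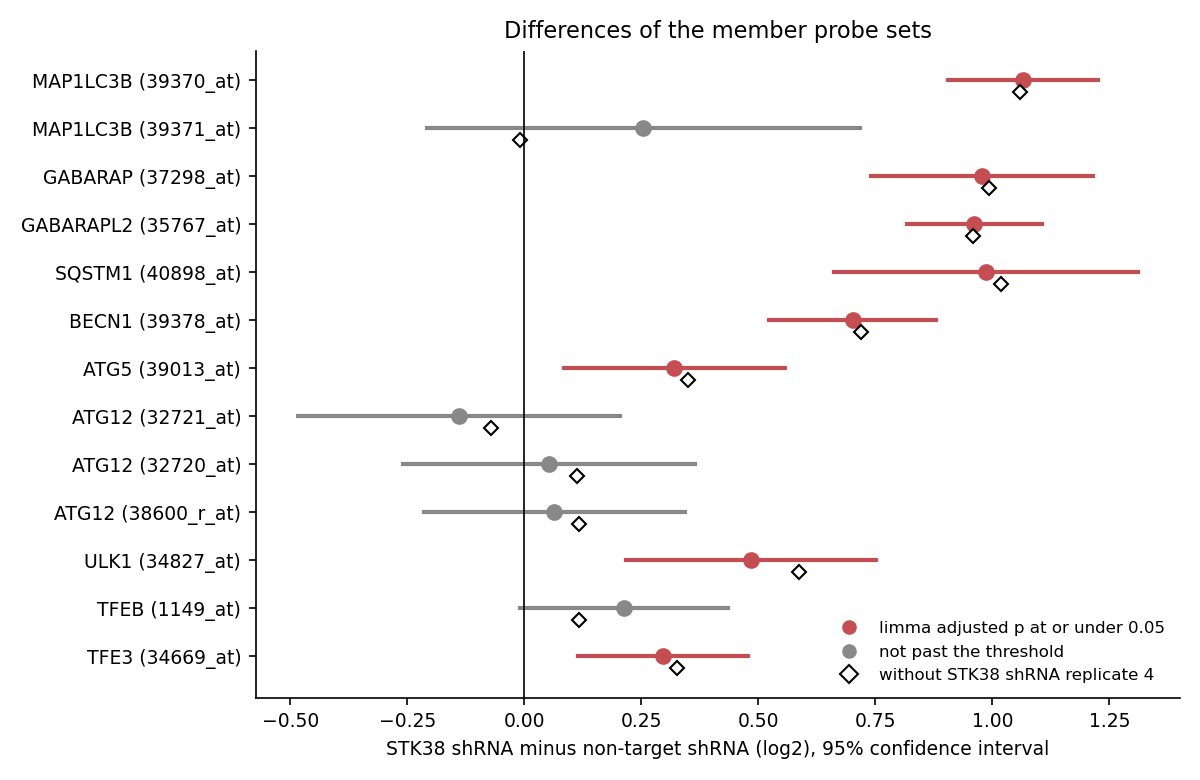
Log2 difference between STK38 shRNA and non-target shRNA arrays (horizontal axis) of each member probe set, with bars for the 95% confidence interval of the limma fit, red where the adjusted p was at or under 0.05 and grey elsewhere; open diamonds give the difference without STK38 shRNA replicate 4. The 5 bright members lie between 0.70 and 1.07, and the diamonds of TFEB and of the dim MAP1LC3B probe set lie closer to 0 than the circles.

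ULK1 encodes the kinase that starts autophagy and that mTORC1 and AMPK phosphorylate. Its probe set was dim, at 2.51, 2.29, 2.24, 1.85 and 2.40 with the STK38 shRNA and 1.97, 1.42, 1.82, 1.88 and 1.78 in the controls. The groups overlapped through replicate 4 of the STK38 shRNA, the lowest of its group. ULK1 was called higher (limma adjusted p = 0.00817; exact permutation p = 0.0238), with 0 control arrays and 2 STK38 shRNA arrays above background, so no fold is given. Its control mean of 1.77 lay under the filter of 1.93 on the mean over all arrays, and it was tested because its STK38 shRNA arrays raised that mean. ATG13, the adaptor of the same kinase complex, rose from 3.25 ± 0.065 to 4.06 ± 0.43 (SD, n = 5 each; log2 0.82, SE 0.18, adjusted p = 0.00250), while RB1CC1, its scaffold FIP200, fell by 0.40 (SE 0.12, adjusted p = 0.0194).

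ATG5 and ATG12 encode proteins that are joined into one conjugate. ATG5 read 2.17, 2.71, 2.40, 2.30 and 2.49 with the STK38 shRNA and 2.14, 1.95, 2.34, 1.92 and 2.12 in the controls, with overlap between the groups. It was called at an adjusted p of 0.0399 in limma, with 3 STK38 shRNA arrays and 0 control arrays above background, and the call was lost under 13 of the 17 alternative settings in which ATG5 was tested. ATG12 was above background on all 10 arrays at its brighter pair of probe sets. The brightest read 3.53, 4.03, 3.65, 3.46 and 4.01 with the STK38 shRNA and 3.51, 4.21, 3.83, 4.07 and 3.77 in the controls, and the groups covered each other. Its log2 difference was -0.14 (95% confidence interval -0.48 to 0.20, adjusted p = 0.590), and the others had 0.054 (-0.26 to 0.37, adjusted p = 0.840) and 0.064 (-0.22 to 0.34, adjusted p = 0.783). The intervals of the brighter pair ended below the lower bounds of MAP1LC3B, GABARAPL2, GABARAP, SQSTM1 and BECN1, which were 0.91, 0.82, 0.74, 0.66 and 0.52. ATG4B, the protease that trims ATG8 proteins before conjugation, rose by 0.78 (SE 0.15, adjusted p = 0.000928), and ATG4A was not above background on any array (adjusted p = 0.553).

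TFEB and TFE3 were close to the limit of the array. TFEB read 2.28, 2.30, 2.23, 2.73 and 2.19 with the STK38 shRNA and 2.14, 2.23, 2.19, 1.99 and 2.10 in the controls. Replicate 4 alone was above background, and the other arrays of both groups lay between 1.99 and 2.30. TFEB was not called (limma adjusted p = 0.148, and 0.232 without replicate 4), and no fold is given. TFE3 read 2.39, 2.61, 2.41, 2.30 and 2.35 with the STK38 shRNA and 2.18, 2.20, 2.08, 1.97 and 2.14 in the controls, without overlap. It was called higher (limma adjusted p = 0.0153), with 2 STK38 shRNA arrays and 0 control arrays above background, so no fold is given. MITF and TFEC, the other genes of that factor family, did not pass the filter on dim probe sets.

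**Figure D3:**
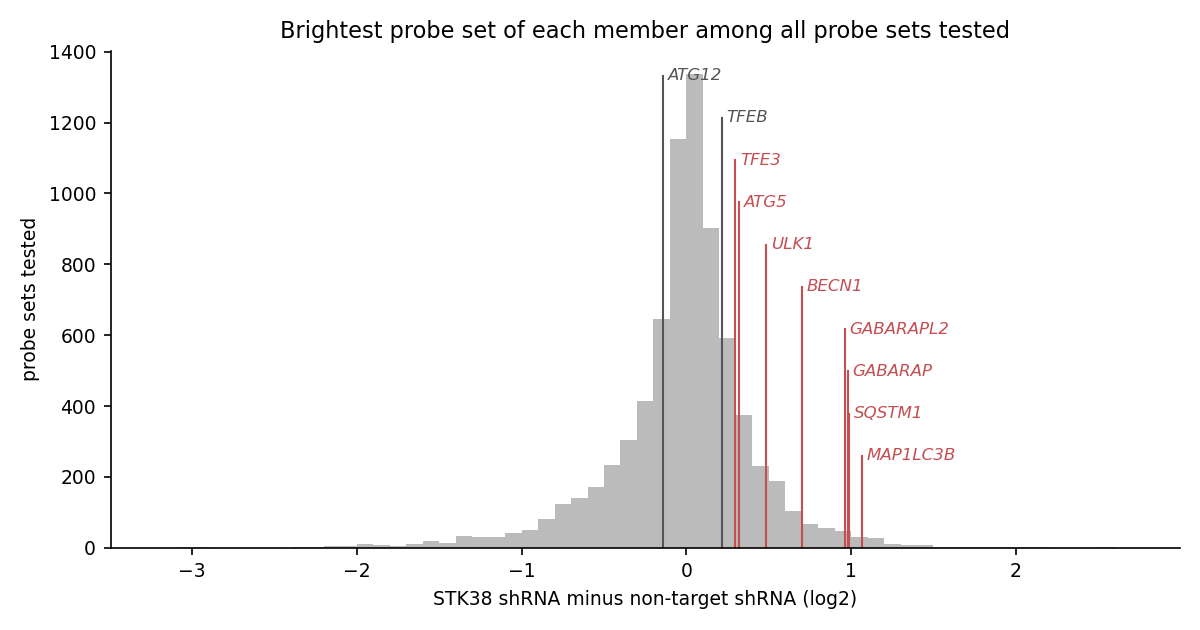
Number of probe sets tested (vertical axis) by log2 difference between STK38 shRNA and non-target shRNA arrays (horizontal axis), with vertical lines at the brightest probe set of each member, red where called and dark grey elsewhere; line heights only separate the names. MAP1LC3B, SQSTM1, GABARAP and GABARAPL2 lie in the right tail, where 1.02% to 1.55% of probe sets rose more, and ATG12 lies left of 0.

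At the single probe set level, 6 of the 13 member probe sets had groups that did not overlap, all of them higher with the STK38 shRNA, where 9.33% of all probe sets tested did so in that direction. These were the brightest probe sets of MAP1LC3B, GABARAP, GABARAPL2, SQSTM1 and BECN1, and TFE3, and each reached the smallest two-sided exact permutation p of 0.00794. Of the 11 pairs of members or of probe sets compared within arrays, 0 passed the threshold after adjustment. With 0.00794 as the smallest possible exact permutation p, no single pair could pass on its own, so no conclusion is drawn from that count. An unadjusted exact permutation p under 0.05 was found for 2 pairs. Pairs with a probe set near background, among them both of these, are not read further. Genes with profiles closest to MAP1LC3B over the 10 arrays, measured as the root mean square difference after subtraction of each gene's control mean, were HADHB (0.0995), ACAT2 (0.10) and NPTN (0.12). HADHB, a subunit of the mitochondrial trifunctional protein, rose by 1.02 and ACAT2, an acetoacetyl-CoA forming enzyme, by 1.12. Those closest to SQSTM1 were SAT1 (0.17), the polyamine acetyltransferase, NSDHL (0.19), a sterol synthesis enzyme, and EPM2AIP1 (0.22), which rose by 0.98, 1.12 and 0.83.

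Across 50 other genes of the autophagy lists that were tested, 20 were called higher and 5 lower, with a median of 0.26, or 0.20 with genes not above background on any array of a group set to their bound. Over all genes tested, 15.2% were called higher and 15.8% lower. Of the 20 called higher, WIPI1, GABARAPL1 and VPS41 had control means under the filter. Without replicate 4 the counts were 26 and 5 of 49, where 21.8% of all genes were called higher. The lists were compiled from general knowledge with results of these data known. Those that fell were SH3GLB1, RB1CC1, WDR45B, PHB2 and XPO1, the last 1 named after its values were seen. Membrane supply and phosphoinositide effectors held 3 higher and 1 lower of 7 genes, and 4 and 1 without replicate 4, where ATG2A passed (adjusted p = 0.00527, against 0.0593). WIPI2, which reads the lipid made by the BECN1 complex and recruits the conjugation machinery, rose by 0.86 (SE 0.10, adjusted p = 1.53e-05). ATG9A, the membrane protein of seed vesicles, rose by 0.78 (SE 0.17, adjusted p = 0.00231), while WDR45B, a WIPI relative, fell by 0.44 (SE 0.11, adjusted p = 0.00628). WIPI1 was called higher with 1 array above background (adjusted p = 0.0253), so no size is given.

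Genes for fusion with lysosomes were called higher in 6 of 8 cases and lower in 0, where 15.2% of all genes tested were called higher and 15.8% lower. Of these, VPS41 was above background on 0 arrays, and its control mean of 1.83 lay under the filter. Without replicate 4 the count was again 6, with LAMP2 gained (adjusted p = 0.0220) and VAMP8 lost (adjusted p = 0.0576). A dimmer LAMP2 probe set was called higher with all arrays kept (0.35, adjusted p = 0.0379). YKT6, an autophagosomal SNARE, rose by 0.99 (SE 0.12, adjusted p = 1.64e-05) and by 0.95 at another probe set. LAMP1, an abundant lysosomal membrane protein, rose by 0.81 (SE 0.097, adjusted p = 1.86e-05). PLEKHM1, a RAB7 adaptor that binds ATG8 proteins, rose by 0.57 (adjusted p = 0.00320) and VPS11, a HOPS subunit, by 0.51 (adjusted p = 0.00839). In the list of mTORC1, AMPK and other regulators of TFEB and ULK1, 6 of 16 rose and 1 fell, with a median of 0.24. Without replicate 4, 8 of 15 rose and 1 fell (median 0.31), where 21.8% of all genes were called higher. TSC1 and TSC2, which form the complex that holds mTORC1 down, rose by 0.80 (SE 0.18, adjusted p = 0.00316) and 0.51 (SE 0.15, adjusted p = 0.0163). RRAGD, a Rag GTPase that links mTORC1 to TFEB and TFE3, rose by 0.63 (SE 0.10, adjusted p = 0.000283) and LAMTOR5, of the Ragulator scaffold, by 0.49 (SE 0.092, adjusted p = 0.000925). MTOR itself had 0.038 (adjusted p = 0.853), a gene named after its value was seen, and XPO1, the nuclear export receptor, fell by 0.28 (SE 0.089, adjusted p = 0.0250).

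The lysosomal genes of the CLEAR network are the classical targets of TFEB and TFE3. They were called higher in 15 of 22 cases and lower in 0, with a median of 0.58. Over all genes tested, 15.2% were called higher and 15.8% lower. Without replicate 4, 17 of the 22 were higher and 0 lower (median 0.67), where 21.8% of all genes were called higher. NEU1 rose by 2.03, PSAP by 1.73, ATP6V0E1, a proton pump subunit, by 1.42 (SE 0.11, adjusted p = 3.35e-07) and CTSA by 1.25. These rises stood beside TFEB and TFE3 transcripts at or near background. The arrays measured neither the protein nor the location of the factors, and whether they had a part in these rises was not tested.

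**Figure D4:**
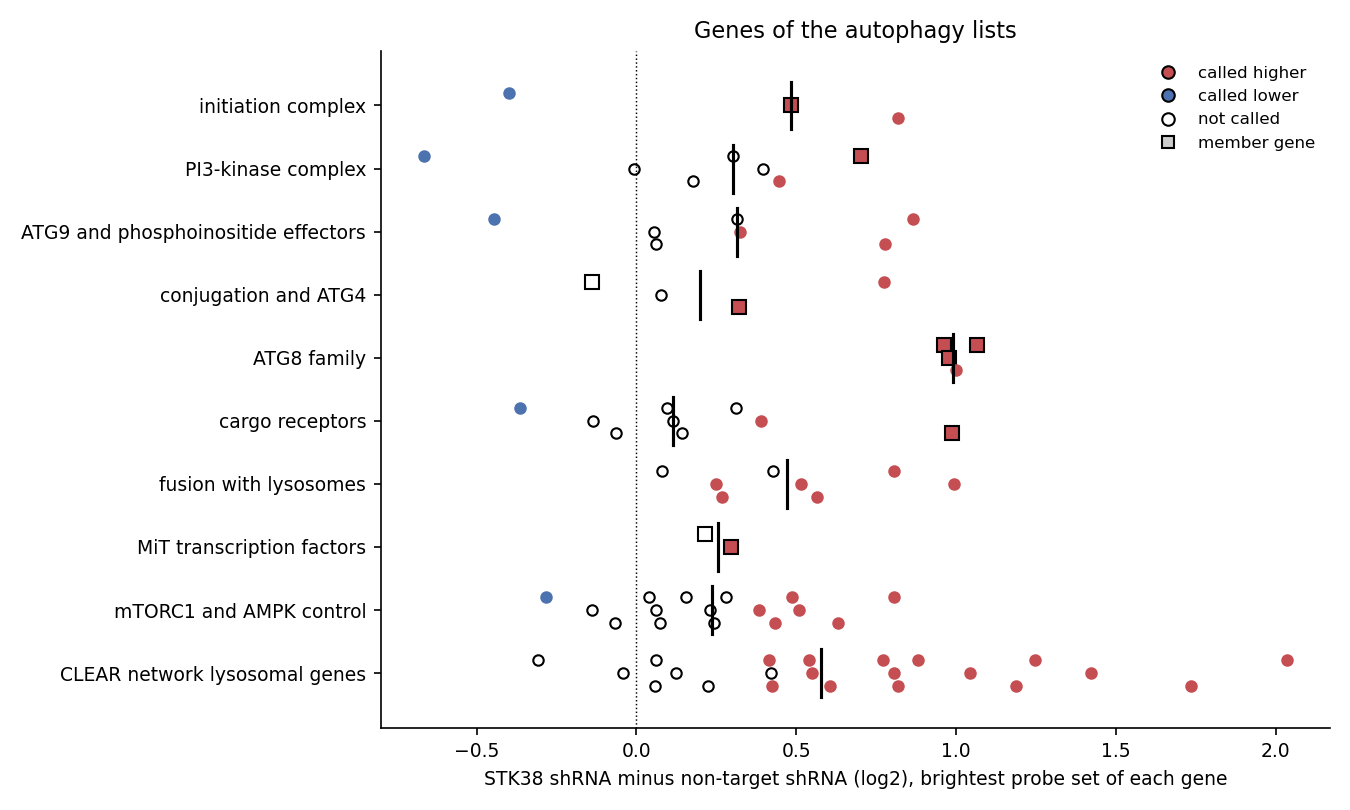
Log2 difference between STK38 shRNA and non-target shRNA arrays (horizontal axis) of the brightest probe set of each tested gene, by list, with red for called higher, blue for called lower, open symbols for not called, squares for members and black bars for list medians. The ATG8 family members MAP1LC3B, GABARAP and GABARAPL2 lie between 0.96 and 1.07, while the cargo receptors spread from -0.37 to 0.99 around a median of 0.11.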

How the data were processed

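Biotin-labelled total RNA was measured on Affymetrix HG-U95Av2 arrays of 1 colour (per the labels). The table deposited by the authors holds log2 values of 12625 probe sets on 10 arrays. The authors made them with GCRMA and affy, per the submitters' processing notes, with no version given; the table names no scale, and log2 was inferred from the tool and the range of values. GCRMA draws dim probe sets to a floor, which shrinks their differences.

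After 67 control probe sets were removed, probe sets under the 40th percentile of the mean over all arrays (1.93) were left out. All 13 member probe sets passed. The groups were compared in R 4.3.3 with limma 3.58.1 (eBayes with trend, no covariate), with Benjamini-Hochberg adjustment over 7535 probe sets; every adjusted p of a single gene is from that fit. A gene is given by its brightest probe set. Background is the 90th percentile of 23 mouse, yeast and reverse-strand control probe sets on each array. Exact permutation tests were two-sided (scipy 1.17.1); plots used matplotlib 3.10.9. The fit was tested on simulated data. Genes were named from the platform annotation, updated through Entrez identifiers to RefSeq on GRCh38.p14; promoters were matched by symbol for 10 of 10 members. Named genes were all members, up to 4 others per list (called first, then by size), and 3 nearest profiles for MAP1LC3B and SQSTM1. Outside that rule, ATG2A, VPS41, VAMP8, LAMP2, XPO1 and MTOR were named after their values were seen. The members, the lists and these rules were chosen with earlier results of these data known. Alternatives covered scaling, filter, variance model, array weights, threshold, probe set choice, a replicate block and leaving out arrays.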

Additional observations from a re-analysis of the deposited data

Results flagged for a closer look

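In 2 of 26 member probe sets by group, 1 array lay far from the other 4 of its group by Dixon's criterion, which chance meets in about 1 of 20 groups, and both were STK38 shRNA replicate 4. The dim MAP1LC3B probe set read 3.50 there against 2.04 to 2.37 on the other STK38 shRNA arrays. TFEB read 2.73 there against 2.19 to 2.30.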

How the results depend on the processing

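MAP1LC3B (bright probe set), GABARAP, GABARAPL2, SQSTM1 and BECN1 kept their direction and their call under all 18 alternative fits and thresholds run for them, with log2 differences of 1.02 to 1.13, 0.88 to 1.06, 0.91 to 1.04, 0.90 to 1.09 and 0.67 to 0.73. ULK1 kept its call in all 17 run for it. That call carries no weight in the count of members, since ULK1 passed the main filter only through its STK38 shRNA arrays. TFE3 lost its call in 2 of 17 and ATG5 in 13 of 17. Of the members, 5 were called with the filter at the 60th percentile, which leaves out ULK1, ATG5 and TFE3. At a threshold of 0.01, 1494 probe sets, 21 genes of the autophagy lists and 6 members, ULK1 among them, were called, against 2256, 33 and 8. With single arrays left out, 1938 to 2836 probe sets, 27 to 39 genes of the autophagy lists, 6 to 8 members and in each case 0 pairs were called. The exact permutation p of 4 against 5 arrays cannot go below 0.0159. No single pair could then pass on its own after adjustment, so the 0 pairs say nothing about stability. With the replicate number as a block, 2159 probe sets and 7 members were called, with ATG5 lost; same-numbered arrays had correlations of -0.21 to 0.19, so the numbers were not taken to pair them. Paired by number, the sign-flip test of pairs cannot go below 0.0625. The mean of its probe sets put MAP1LC3B at 0.66.

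Differences around 0 changed sign. The dim MAP1LC3B probe set gave -0.0097 without STK38 shRNA replicate 4 and up to 0.36 without other arrays. With single arrays left out, ATG12 gave -0.0040, -0.0067 and -0.028 at its middle probe set (up to 0.11), and -0.0076 and -0.030 at its dimmest (up to 0.16). Excess changes turned to -0.021 (MAP1LC3B over GABARAP), -0.056 and, with quantile normalization, -0.020 (GABARAP over GABARAPL2, up to 0.055), -0.018 and -0.0060 (MAP1LC3B over SQSTM1, up to 0.20), and 0.057 with quantile normalization or 0.013, 0.023, 0.028, 0.042 and 0.11 (middle over dimmest ATG12 probe set, down to -0.16). The cause was not tested. With a background set without human controls, chosen after seeing the data, 9, 4, 9 and 10 of 10 arrays were above it for ATG5, ULK1, TFEB and TFE3. The dim MAP1LC3B probe set and the dimmest of ATG12 were above it on 9 and 7 arrays, against 1 and 2 with the main background.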
